A study of Homo sapiens with 96 samples.

Results

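The 47 genes described here act in mitosis: they drive entry into it, build the spindle and the kinetochores, run the spindle checkpoint and divide the cell. They are the rows of the count matrix that carry the listed symbols, 47 of 60675 genes; kinesins other than CENPE, condensins and the chromosomal passenger complex were not included. Expression was measured by RNA sequencing in 96 libraries of A549, a human lung adenocarcinoma cell line, exposed to extracts or ingredients of Paeoniae Radix, the dried peony root. The first batch (21 libraries, 7 groups) held cells with an ethanol extract or a water extract, each dosed at 20, 100 or 500 µg/mL, and vehicle cells. The second (75 libraries, 25 groups) held cells with oleanolic acid, hederagenin, gallic acid, benzoic acid, catechin, paeonol, paeoniflorin or albiflorin at 0.4, 2 or 10 µM, and vehicle cells of its own. Every group had 3 libraries of this cell line, and each batch was compared with its own vehicle. How long cells were exposed, and what the vehicle was, were not given in the sources used here. Nothing in the labels describes the 3 libraries of a group as separate cultures, so p-values reflect the spread among libraries, which may be technical only.

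Cells enter mitosis when cyclin B and its kinase CDK1 become active, with the help of Aurora A and polo-like kinases. Kinetochores then tie chromosomes to spindle microtubules, and checkpoint kinases hold back the anaphase-promoting complex until every chromosome is attached. Many of these genes are transcribed mainly in G2 and mitosis, from promoters that often hold a CHR element and CCAAT boxes, and FOXM1 is among their activators. In bulk libraries such as these, fewer cells in mitosis and less transcript per cell cannot be told apart.

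The promoters of 3 genes are shown because they belong to the largest fall, the median change and the largest rise among the 47 genes with ethanol extract at 500 µg/mL. They are RefSeq windows on GRCh38.p14 of 300 bases, from 250 before to 50 after an annotated start site, written 5′ to 3′ on the gene's strand, with CHR (TTTGAA) and CCAAT letters on either strand in capitals. DLGAP5 is at chr14:55191536-55191835 on the minus strand, CDC25B at chr20:3786701-3787000 on the plus strand (the first listed of 4 windows) and ECT2 at chr3:172750476-172750775 on the plus strand (the first listed of 2).
DLGAP5: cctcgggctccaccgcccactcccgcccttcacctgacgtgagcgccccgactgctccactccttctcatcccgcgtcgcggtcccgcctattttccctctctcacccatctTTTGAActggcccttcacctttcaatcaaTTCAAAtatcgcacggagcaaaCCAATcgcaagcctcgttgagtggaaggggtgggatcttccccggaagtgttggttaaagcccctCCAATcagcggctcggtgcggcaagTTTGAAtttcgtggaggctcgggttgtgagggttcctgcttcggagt
CDC25B: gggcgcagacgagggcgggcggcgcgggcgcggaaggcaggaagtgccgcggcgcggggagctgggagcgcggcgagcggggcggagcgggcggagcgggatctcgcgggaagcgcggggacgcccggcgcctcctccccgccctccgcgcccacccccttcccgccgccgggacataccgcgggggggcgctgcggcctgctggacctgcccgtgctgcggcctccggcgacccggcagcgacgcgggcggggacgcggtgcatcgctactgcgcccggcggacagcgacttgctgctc
ECT2: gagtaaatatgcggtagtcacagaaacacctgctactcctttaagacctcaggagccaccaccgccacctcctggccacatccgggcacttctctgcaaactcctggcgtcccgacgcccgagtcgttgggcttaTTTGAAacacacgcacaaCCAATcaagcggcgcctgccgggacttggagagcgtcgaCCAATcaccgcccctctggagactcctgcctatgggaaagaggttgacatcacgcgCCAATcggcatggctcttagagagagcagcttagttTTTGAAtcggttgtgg
The DLGAP5 window held 3 CHR and 2 CCAAT matches, with the CCAAT letters starting at bases -87 and -22 from the start site. The ECT2 window held 2 CHR and 3 CCAAT matches. None of the motifs searched was found in the CDC25B window shown. Another listed window of CDC25B held CHR or its variant with CCAAT, so the gene is counted below among those with both.

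Windows were found for 37 of the 47 genes, and a gene was counted where any of its windows held a motif on either strand. CHR was present in 27 of 37 (73%, against 18.2% of the 27305 genes with a window). Its variant TTCGAA was present in 3 of 37 (8.11%, against 1.82% of all genes), and CCAAT in 28 of 37 (75.7%, against 39.7%). The E2F letters tttcccgc, tttcgcgc, tttggcgc or tttgccgc were present in 3 of 37 (8.11%, against 3.99%). CHR or its variant stood with CCAAT in the same window in 22 of 37 (59.5%, against 7.85%). Those 22 genes had a median log2 change of -0.64 with ethanol extract at 500 µg/mL and included DLGAP5, CDC25B and ECT2. The other 15 genes had a median of -0.79 and included CENPE. A match is a description of the letters and no evidence of binding.

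Totals per library ranged from 17927973 to 28136782 counts in the first batch and from 15678190 to 35599940 in the second. KRT18, an epithelial keratin of A549 cells, was at 1249 CPM (counts scaled to a common, TMM-adjusted library size) or more in every library, and PTPRC, a marker of blood cells, at 0.227 CPM or less. Libraries stood apart in the ingredient batch. The share of counts from 37 mitochondrially encoded genes was 0.822 to 18.9% in its treated libraries and 14.5 to 14.9% in its vehicle libraries, and it was under 5% in 16 treated libraries of 14 groups. COL1A2, a collagen gene of fibroblasts, was above 100 CPM in 4 libraries of that batch. Of the other fibroblast markers there, COL1A1, COL3A1 and LUM reached 535, 65.7 and 11.8 CPM. DCN, POSTN, PDGFRB and FAP stayed at 0.961 CPM or less, and THY1 lay between 5.88 and 9.93 CPM. Calls on ingredients are given with and without the 16 libraries where a group kept more than a single library. Counts from fits with no filter, with fewer groups or with left-out replicates come without the share of all genes. They are no result about these genes in particular. In the extract batch the share was 14.2 to 18.6% in treated libraries and 16.9 to 22.1% in vehicle libraries.

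Ethanol extract at 500 µg/mL gave the most calls among these genes. Compared with vehicle, 40 of the 47 genes fell, 3 rose and 4 did not pass the test (adjusted p under 0.05, edgeR quasi-likelihood test). The median log2 change of the 47 was -0.64, against 0.001 over all 16854 genes tested. Much of the transcriptome changed at this dose: 69.1% of all genes tested passed in either direction, 34.4% lower and 34.7% higher. The log2 changes of the genes that fell ran from -4.19 for DLGAP5 to -0.14 for SPC24, and 15 genes changed by at least 2-fold. The summed level of the A549 markers was 6996 to 7155 CPM in the ethanol extract libraries and 10566 to 12060.4 CPM in the vehicle libraries. That of the 4 blood markers was 17.7 to 21.6 CPM with the extract and 8.97 to 12.3 CPM with vehicle, with PTPRC, HBB and CD3E at 0 in all 3 extract libraries. The part of these levels in the result was not tested.

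**Figure D1:**
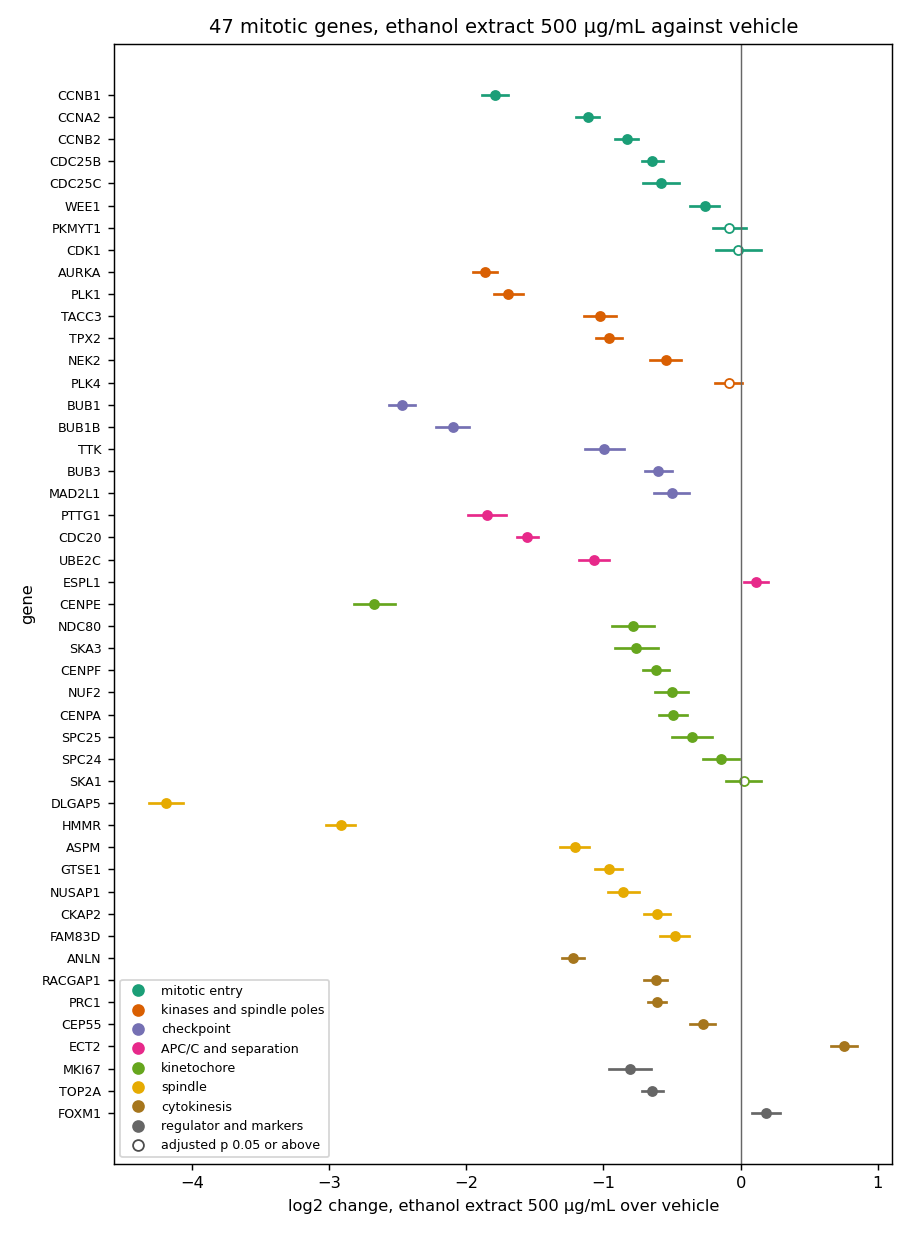
Log2 change of each of the 47 genes (rows, grouped and coloured by role) in cells given ethanol extract at 500 µg/mL over vehicle, with 95% intervals from the edgeR fit (n = 3 libraries per group); open points did not pass the test. DLGAP5, HMMR and CENPE lie farthest to the left, and ECT2 lies farthest to the right at 0.75.

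Of the 7 spindle genes, all fell, with a median log2 change of -0.96. DLGAP5 (chr14:55148112-55191678 in GENCODE v29 on GRCh38), which encodes a microtubule-bundling protein of the spindle, was at 3.93, 4.47 and 4.49 CPM with the extract, against 77.3, 84.3 and 74.2 CPM with vehicle. This was an 18.2-fold lower level (log2 -4.19 ± 0.06 SE, edgeR adjusted p = 5.82e-24). HMMR (chr5:163460203-163491945), a microtubule-binding spindle assembly factor, was at 8.82, 7.91 and 9.05 CPM with the extract, against 67.03, 64.5 and 62.8 CPM with vehicle (log2 -2.92 ± 0.05, edgeR adjusted p = 2.73e-22). The groups did not overlap for either gene. ASPM, a spindle pole protein, changed by -1.21 ± 0.05, GTSE1, a microtubule-associated protein of G2, by -0.96 ± 0.05 and NUSAP1, which bundles spindle microtubules, by -0.85 ± 0.05. CKAP2, a spindle microtubule protein, changed by -0.61 ± 0.05 and FAM83D by -0.48 ± 0.05. A readthrough gene overlaps exons of NUSAP1 in GENCODE v29 and has no row in the count matrix.

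Of the 5 checkpoint genes, all fell (median log2 -0.99). BUB1 (chr2:110637698-110678114), a checkpoint kinase at the kinetochore, was at 19.1, 20.6 and 21.2 CPM with the extract, against 114, 113 and 110.2 CPM with vehicle (log2 -2.47 ± 0.05, edgeR adjusted p = 1.02e-21). BUB1B (chr15:40161023-40221136), which encodes the checkpoint protein BUBR1, was at 14.6, 14.8 and 14.9 CPM with the extract, against 62.9, 65.9 and 61.03 CPM with vehicle (log2 -2.10 ± 0.06, edgeR adjusted p = 4.76e-19). Both genes were lower in every extract library than in any vehicle library. The kinase TTK changed by -0.99 ± 0.07, BUB3 by -0.60 ± 0.05 and MAD2L1, the MAD2 checkpoint protein, by -0.50 ± 0.06.

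Of the 9 kinetochore genes, 8 fell, with a median log2 change of -0.50. CENPE (chr4:103105806-103198409), the kinetochore motor that carries chromosomes to the spindle equator, was at 9.61, 11.1 and 11.2 CPM with the extract, against 65.8, 74.9 and 63.8 CPM with vehicle (log2 -2.67 ± 0.07, edgeR adjusted p = 4.45e-19). In the NDC80 complex, which grips microtubules, NDC80 changed by -0.79 ± 0.07, NUF2 by -0.50 ± 0.06, SPC25 by -0.36 ± 0.07 and SPC24 by -0.14 ± 0.06. SKA3 changed by -0.76 ± 0.08, and its partner SKA1 did not pass (0.02 ± 0.06, edgeR adjusted p = 0.748). CENPF changed by -0.62 ± 0.04 and the centromeric histone CENPA by -0.49 ± 0.05. CENPA shares 6.96% of its exon bases with SLC35F6 on the same strand, which had a median of 101.7 CPM in this batch. The assignment of reads there is uncertain. The fall of SPC24 (edgeR adjusted p = 0.0491) was not called in most other fits, DESeq2 included.

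Of the 6 mitotic kinases and spindle pole genes, 5 fell (median log2 -0.99). AURKA (chr20:56369389-56392337), the Aurora A kinase that matures centrosomes, was at 42.4, 41.02 and 42.2 CPM with the extract, against 149, 149 and 159 CPM with vehicle (log2 -1.86 ± 0.04, edgeR adjusted p = 1.37e-20). Its activator TPX2 changed by -0.96 ± 0.05 and its substrate TACC3 by -1.02 ± 0.06. PLK1 (chr16:23677656-23690367), the polo-like kinase of mitotic entry and progression, was at 52.002, 54.9 and 59.1 CPM with the extract, against 177, 172 and 188 CPM with vehicle (log2 -1.69 ± 0.05, edgeR adjusted p = 2.43e-18). NEK2, which separates centrosomes, changed by -0.55 ± 0.06. PLK4, the kinase of centriole duplication, did not pass (-0.09 ± 0.05, edgeR adjusted p = 0.109).

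Of the 8 genes of mitotic entry, 6 fell (median log2 -0.61), and CDK1 was not among them. CCNB1 (chr5:69167010-69178245), cyclin B1, was at 46.3, 47.9 and 45.7 CPM with the extract, against 162, 169 and 153 CPM with vehicle (log2 -1.79 ± 0.05, edgeR adjusted p = 1.81e-19). CCNA2, cyclin A2, changed by -1.12 ± 0.04 and CCNB2, cyclin B2, by -0.83 ± 0.04. CDK1 (chr10:60778331-60794852), the kinase these cyclins bind, was at 72.7, 74.005 and 61.7 CPM with the extract, against 71.4, 75.1 and 64.1 CPM with vehicle. The groups overlapped, and the log2 change of -0.02 ± 0.08 (95% interval -0.18 to 0.15, edgeR adjusted p = 0.871) took the opposite sign with upper-quartile scaling. The phosphatases CDC25B and CDC25C, which activate CDK1, changed by -0.64 ± 0.04 and -0.58 ± 0.06. Of the kinases that inhibit it, WEE1 changed by -0.26 ± 0.05 and PKMYT1 did not pass (-0.08 ± 0.06, edgeR adjusted p = 0.211). Exons of PKMYT1, CCNA2 and CDC25C overlap genes on the other strand, and whether counting used strand was not given in the sources used here.

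Of the 4 genes around the anaphase-promoting complex and sister separation, 3 fell and 1 rose. PTTG1 (chr5:160421822-160428744), which encodes securin, the inhibitor of separase, was at 34.7, 33.4 and 33.7 CPM with the extract, against 118, 134 and 116 CPM with vehicle (log2 -1.85 ± 0.07, edgeR adjusted p = 5.50e-17). CDC20 (chr1:43358955-43363203), the activator of that complex, was at 36.1, 37.1 and 36.1 CPM with the extract, against 107, 106 and 108 CPM with vehicle (log2 -1.56 ± 0.04, edgeR adjusted p = 6.06e-20). The pseudogene CDC20P1 had a median of 8.08 CPM (of the unadjusted library total) in this batch, so the assignment of CDC20 reads is uncertain. UBE2C, the ubiquitin-conjugating enzyme of the complex, changed by -1.07 ± 0.05. ESPL1 (chr12:53268299-53293643), separase itself, was at 57.3, 54.03 and 57.6 CPM with the extract, against 51.5, 51.96 and 52.7 CPM with vehicle (log2 0.11 ± 0.04, edgeR adjusted p = 0.0204), and this rise was lost with no filter on low counts and when some single libraries were left out.

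Of the 5 cytokinesis genes, 4 fell and ECT2 rose. ECT2 (chr3:172750682-172821474), the exchange factor that activates RHOA at the cleavage furrow, was at 258, 278 and 257 CPM with the extract, against 160.2, 154 and 157 CPM with vehicle (log2 0.75 ± 0.05, edgeR adjusted p = 8.37e-13), and the groups did not overlap. RACGAP1, which binds ECT2 at the spindle midzone, changed by -0.62 ± 0.04. The ring scaffold ANLN changed by -1.22 ± 0.04, the microtubule bundler PRC1 by -0.61 ± 0.03 and the midbody protein CEP55 by -0.28 ± 0.04. A readthrough gene overlaps exons of PRC1 in GENCODE v29 and has no row in the count matrix.

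FOXM1 (chr12:2857681-2877155), a transcription factor of G2 and mitosis genes, rose. It was at 244, 253 and 250.3 CPM with the extract, against 227, 202 and 227 CPM with vehicle (log2 0.19 ± 0.05, edgeR adjusted p = 0.00158), and its exons overlap ITFG2 on the other strand. TOP2A (chr17:40388516-40417950), the topoisomerase that untangles sister chromatids, was at 599.9, 604 and 587 CPM with the extract, against 934, 983 and 880.4 CPM with vehicle (log2 -0.64 ± 0.04, edgeR adjusted p = 1.67e-13). MKI67 (chr10:128096659-128126385), the proliferation marker Ki-67, was at 364, 372 and 418 CPM with the extract, against 661, 651 and 708 CPM with vehicle (log2 -0.81 ± 0.07, edgeR adjusted p = 9.85e-10). TOP2A and MKI67 were lower, and FOXM1 higher, in every extract library than in any vehicle library.

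Other genes of these pathways, from lists by function, moved in both directions at this dose. Of 15 genes of the anaphase-promoting complex, 12 fell and 2 rose (median log2 -0.50), and its subunits CDC27 and ANAPC7 changed by -1.32 ± 0.04 and -0.997 ± 0.03. Of 13 inner kinetochore genes, 4 fell and 4 rose (median 0.12), with CENPI at -0.96 ± 0.06. Of 12 genes around KNL1, MIS12 and the checkpoint adaptors, 8 fell and 2 rose (median -0.37), with SPDL1, a dynein adaptor of the kinetochore, at -1.32 ± 0.05. Of 11 cohesin genes, 7 fell and 2 rose (median -0.24): the cohesin regulator PDS5B changed by -1.78 ± 0.08, and CDCA5, sororin, by 0.62 ± 0.04. Of 7 centriole genes tested, 3 fell and 3 rose (median -0.13), with CEP192 at -0.78 ± 0.06 and CEP152 at 0.75 ± 0.07.

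Of 12 genes around the DREAM and MuvB complexes, which repress or activate cell cycle promoters, 8 fell and 3 rose (median log2 -0.24). The kinase DYRK1A changed by 0.91 ± 0.07, LIN54, which binds CHR elements, by 0.65 ± 0.05 and RBL2, the pocket protein p130, by -0.58 ± 0.05. Of 20 genes of G1 and DNA replication, 15 fell and 3 rose (median -0.27), with the helicase subunit MCM6 at -1.45 ± 0.04 and the licensing factor CDT1 at 1.37 ± 0.05. Of 5 inhibitors of cyclin-dependent kinases tested, 3 rose and 0 fell (median 0.47). CDKN1A, p21, averaged 158 CPM with the extract and 114 CPM with vehicle (0.47 ± 0.05), and CDKN1B, p27, changed by 0.57 ± 0.06.

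**Figure D2:**
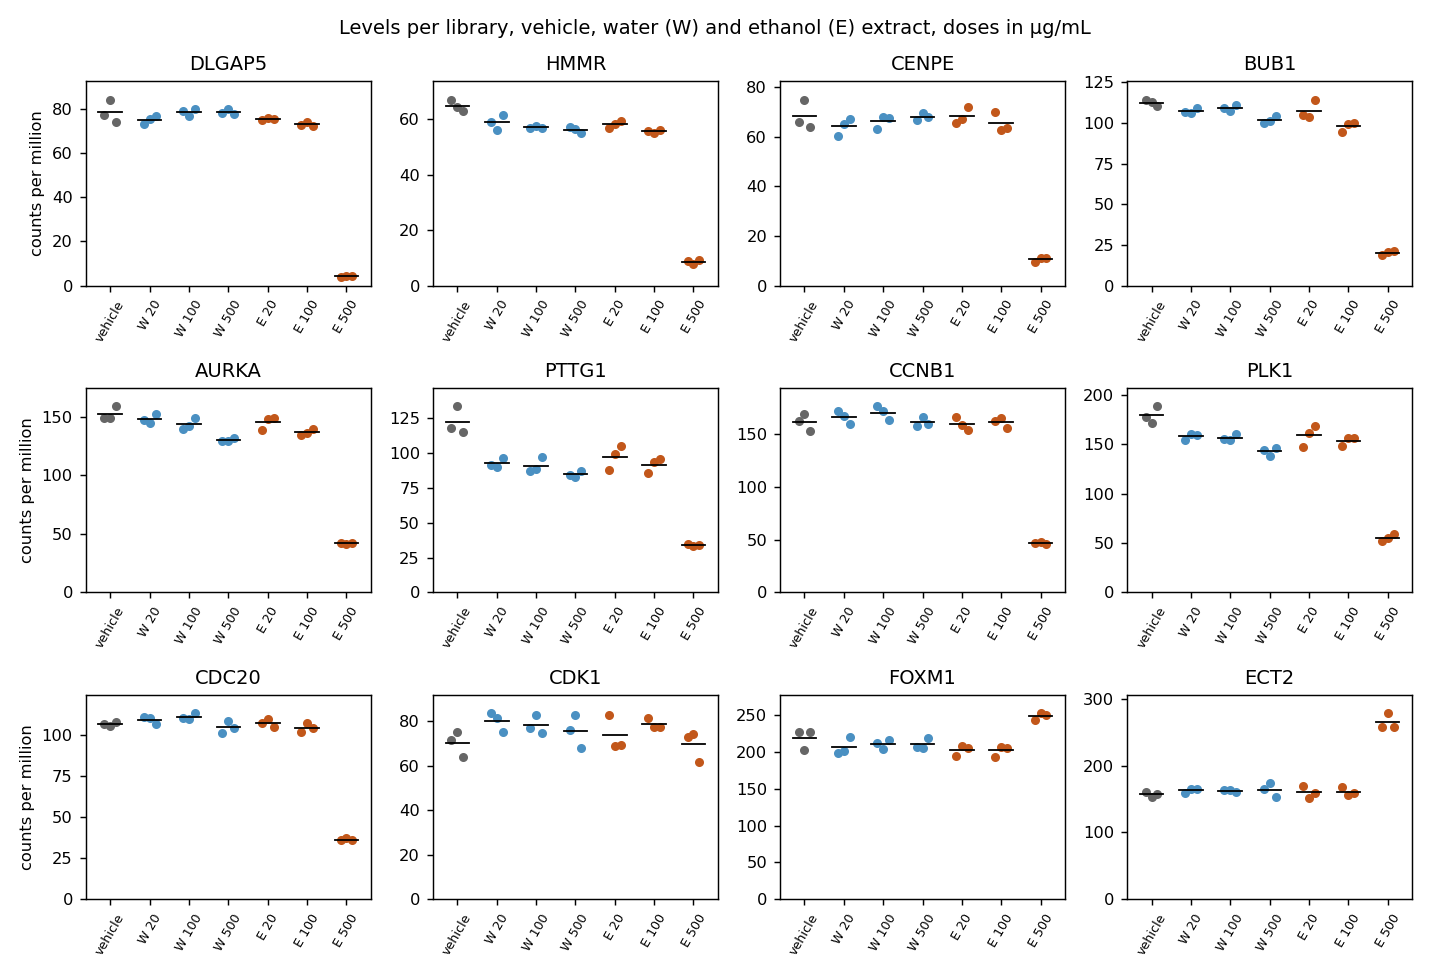
Level in CPM (linear axis from 0) of selected genes in each library of the extract batch, by group from vehicle and the lowest dose to the highest of each extract (µg/mL); points are libraries and bars are group means. DLGAP5 stands at a mean of 4.29 CPM with ethanol extract at 500 µg/mL and above 70 CPM in the means of the other 6 groups.

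The direct test between extracts at 500 µg/mL gave 40 genes lower and 2, ECT2 and FOXM1, higher with ethanol than with water extract, where 66.1% of all genes tested passed in either direction. DLGAP5 averaged 4.29 ± 0.32 CPM with ethanol extract and 78.6 ± 1.2 CPM with water extract (SD, n = 3 each; log2 -4.19 ± 0.06, edgeR adjusted p = 5.05e-24). HMMR, BUB1, CDC20, AURKA and CCNB1 differed by -2.71, -2.32, -1.53, -1.64 and -1.79 on the log2 scale. CDK1, PLK4, ESPL1, SPC25 and SKA1 did not pass. At 100 µg/mL, where 1.77% of all genes passed, CDC25B was higher with ethanol extract (371 ± 12 CPM, against 307 ± 4.5 CPM with water extract, SD, n = 3 each; log2 0.28 ± 0.04, edgeR adjusted p = 1.13e-04). BUB1 was lower with ethanol extract at that dose (98.04 ± 3.2 CPM, against 109 ± 1.9 CPM with water extract; -0.15 ± 0.04, edgeR adjusted p = 0.0468), a call that was lost without any 1 of the 6 libraries, with no filter on low counts and with upper-quartile scaling. Neither edgeR nor DESeq2 called any of the 47 genes at 20 µg/mL (0 calls each), 1 of the 47 had an unadjusted p under 0.05, and 0% of all genes passed.

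With 500 against 20 µg/mL of ethanol extract, 40 genes were lower and 3 (ECT2, FOXM1 and SKA1) higher, where 67.5% of all genes tested passed. DLGAP5 averaged 75.6 ± 0.43 CPM at 20 µg/mL, 73.04 ± 0.88 CPM at 100 µg/mL and 4.29 ± 0.32 CPM at 500 µg/mL (SD, n = 3 each). With 500 against 20 µg/mL of water extract, where 2.05% of all genes passed, AURKA was the 1 gene called: it averaged 130.3 ± 1.5 CPM at 500 µg/mL and 148 ± 4.3 CPM at 20 µg/mL (SD, n = 3 each; log2 -0.19 ± 0.04, edgeR adjusted p = 0.00885). This call was lost without replicate 3 of water extract at 20 µg/mL (0 genes passed). CCNB1, at 161 ± 4.5 CPM with water extract at 500 µg/mL and 161 ± 7.8 CPM with vehicle, did not pass against vehicle.

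The lower doses, and water extract at 500 µg/mL, gave small changes against vehicle, and these comparisons share the same 3 vehicle libraries. With ethanol extract 5 genes fell and 0 rose at 20 µg/mL (7.45% of all genes tested passed), and 14 fell and 2 rose at 100 µg/mL (17.5%). With water extract 7 fell and 1 rose at 20 µg/mL (9.51%), 7 fell and 1 rose at 100 µg/mL (12.6%), and 12 fell and 3 rose at 500 µg/mL (21.1%). Calls at the low doses depended on single libraries: leaving out 1 treated or vehicle library at a time gave 1 to 8 genes with ethanol extract at 20 µg/mL (lowest without vehicle replicate 1), 2 to 11 with water extract at 20 µg/mL (lowest without its replicate 1) and 4 to 10 with water extract at 100 µg/mL (lowest without its replicate 2 or vehicle replicate 3). With only the 2 groups compared in the fit, 0 genes passed with ethanol extract and 3 with water extract at 20 µg/mL. No change among the 47 reached 2-fold in these comparisons. PTTG1 had the smallest p of the 47 genes in all 5. It averaged 97.5 ± 8.9 CPM and 91.7 ± 5.4 CPM at 20 and 100 µg/mL of ethanol extract, and 93.03 ± 3.4 CPM, 91.2 ± 5.7 CPM and 84.8 ± 2.0 CPM at 20, 100 and 500 µg/mL of water extract, against 122 ± 9.8 CPM with vehicle (SD, n = 3 each). Each of these treated libraries lay below all 3 vehicle libraries.

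HMMR and PLK1 also fell in all 5 of these comparisons. With water extract at 500 µg/mL PLK1 averaged 143 ± 3.9 CPM, against 179 ± 8.4 CPM with vehicle (SD, n = 3 each; log2 -0.33 ± 0.05, edgeR adjusted p = 5.08e-05). AURKA changed by -0.23 ± 0.04, TPX2 by -0.25 ± 0.05, CCNA2 by -0.22 ± 0.04, HMMR by -0.21 ± 0.04 and BUB1 by -0.14 ± 0.04 at that dose. The other named genes, at CDK1 (0.11), CCNB1 (-0.003), CDC20 (-0.03), TOP2A (0.02), MKI67 (-0.08) and FOXM1 (-0.06), did not pass. ESPL1 rose in 4 of the 5 comparisons; it averaged 60.4 ± 2.6 CPM with water extract at 100 µg/mL, against 52.1 ± 0.61 CPM with vehicle (SD, n = 3 each; 0.21 ± 0.04, edgeR adjusted p = 0.00225). GTSE1 and ASPM rose with water extract at 500 µg/mL and fell with ethanol extract at 500 µg/mL, and CDC25B rose with ethanol extract at 100 µg/mL (0.20 ± 0.04) and fell at 500 µg/mL. The mitochondrially encoded share was lower at its median in each treated group than with vehicle, and its part in these small differences was not tested.

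**Figure D3:**
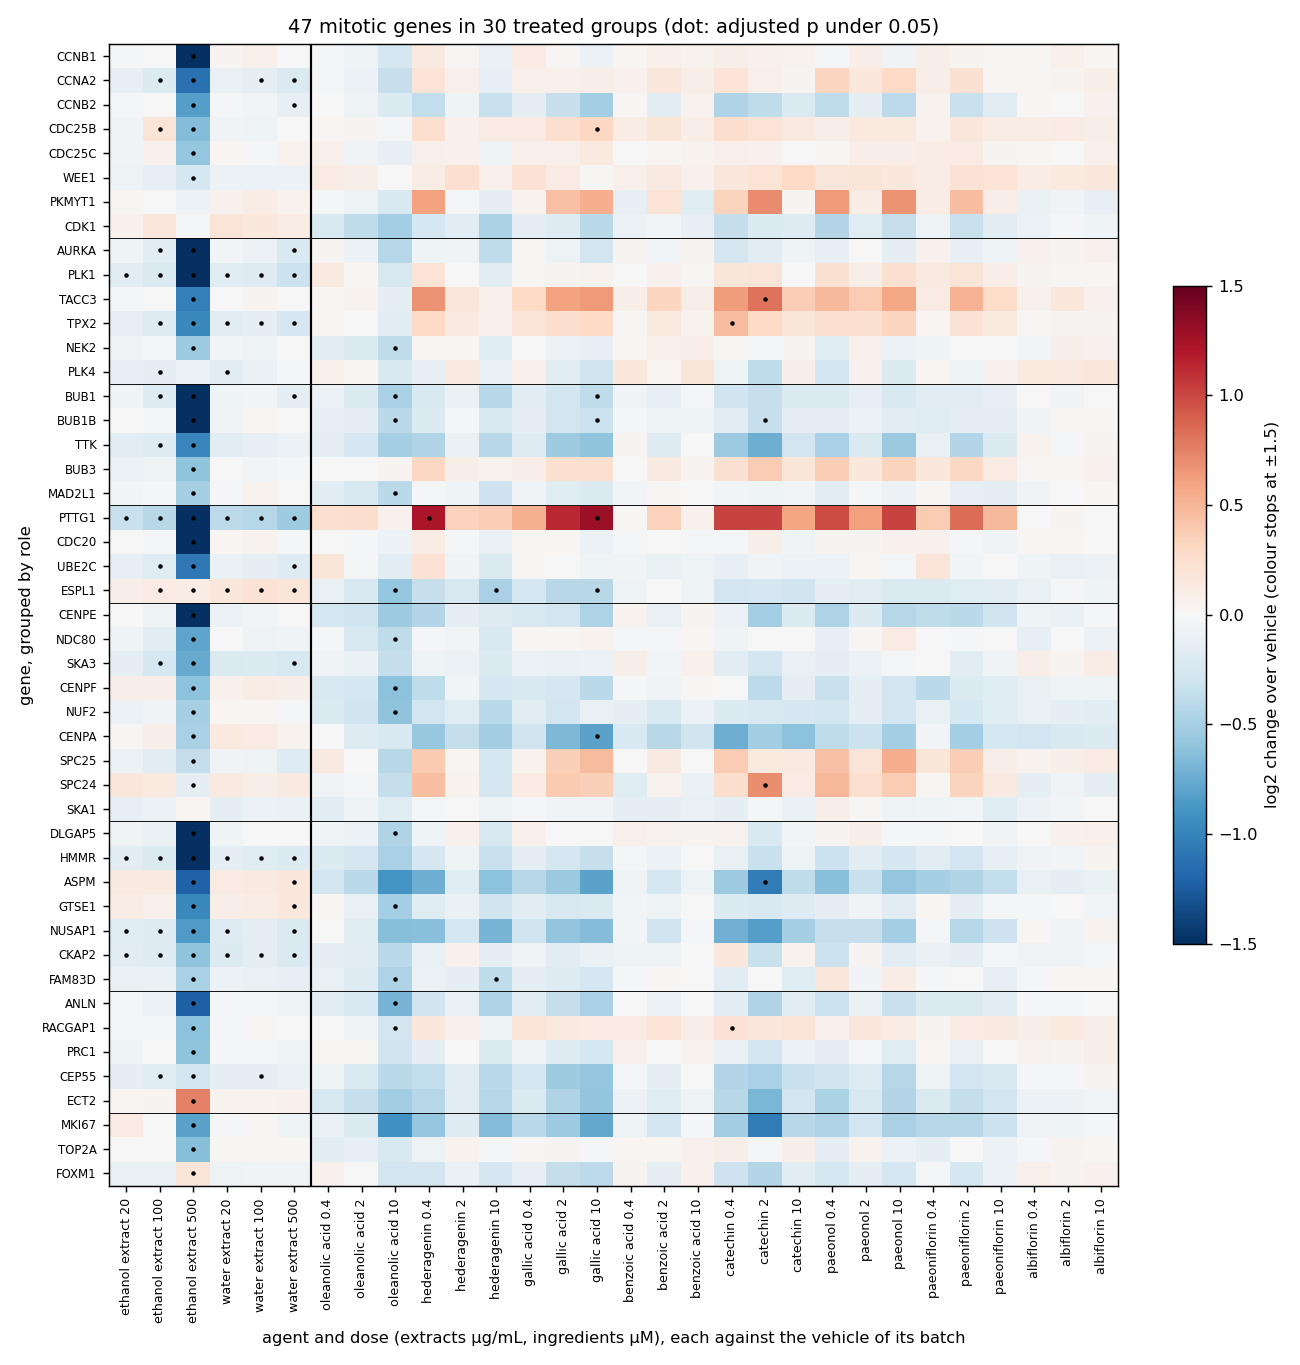
Log2 change over the vehicle of the same batch for the 47 genes (rows, by role) in all 30 treated groups (columns; extracts in µg/mL, ingredients in µM), with dots where edgeR's adjusted p is under 0.05 and a colour scale that stops at ±1.5. The column of ethanol extract at 500 µg/mL holds 43 dots, and oleanolic acid at 10 µM, with 13, holds the most among the ingredients.

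Among the 24 ingredient groups, oleanolic acid at 10 µM gave the most calls against vehicle. With this plant triterpene, 13 of the 47 genes fell and 0 rose, where 4.45% of all 18324 genes tested passed and 1.87% were lower. The log2 change was negative in 44 of 47 genes, with a median of -0.38, against 0.015 over all genes tested. DLGAP5 was at 54.2, 54.9 and 51.6 CPM with oleanolic acid, against 73.9, 72.2 and 73.1 CPM with vehicle (log2 -0.45 ± 0.09, edgeR adjusted p = 5.33e-04). NUF2 was at 17.6, 19.5 and 18.1 CPM with oleanolic acid, against 26.7, 27.9 and 29.5 CPM with vehicle (-0.61 ± 0.13, edgeR adjusted p = 0.00145). FAM83D, which brings casein kinase to the spindle, was at 52.9, 55.5 and 49.8 CPM with oleanolic acid, against 72.6, 71.7 and 74.4 CPM with vehicle (-0.47 ± 0.10, edgeR adjusted p = 0.00164). For these 3 genes every treated library lay below every vehicle library. RACGAP1 changed by -0.27 ± 0.06, MAD2L1 by -0.41 ± 0.10 and ESPL1 by -0.58 ± 0.14, and the others that fell were BUB1B, GTSE1, NDC80, ANLN, NEK2, BUB1 and CENPF.

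By role, the calls with oleanolic acid lay in 3 of 9 kinetochore, 3 of 5 checkpoint, 3 of 7 spindle and 2 of 5 cytokinesis genes, with NEK2 and ESPL1 besides. In the 8 mitotic entry genes 0 calls were made by edgeR. The other named genes were at AURKA (-0.42), PLK1 (-0.24), CDK1 (-0.51), CCNB1 (-0.27), CDC20 (-0.09), TOP2A (-0.23), MKI67 (-0.91) and FOXM1 (-0.29), and none of these passed, while BUB1 was at -0.49. MKI67 was at 434, 341 and 272 CPM with oleanolic acid, against 645, 674 and 643 CPM with vehicle (edgeR adjusted p = 0.213). Of the other pathway lists, 2 of 12 genes around KNL1, 2 of 20 genes of G1 and replication and 1 kinase inhibitor fell, and 1 of 15 anaphase-promoting complex genes rose. Without replicate 3 of the vehicle 7 of the 47 genes passed, and over all left-out libraries of this comparison the count was 7 to 12. With no filter on low counts 4 genes passed: DLGAP5, NUF2, FAM83D and ESPL1.

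In a fit without the 16 libraries under 5% mitochondrial share, which include replicate 3 of this group, 35 of the 47 genes fell with oleanolic acid at 10 µM, where 18.1% of all genes tested passed. The median was -0.35, and the 13 genes above were all among the 35. In that fit ANLN changed by -0.67 (edgeR adjusted p = 1.03e-10), DLGAP5 by -0.42, HMMR by -0.47, AURKA by -0.33 and CDK1 by -0.53. Against the lowest dose, a comparison that does not use the vehicle libraries, 6 genes were lower at 10 than at 0.4 µM (2.47% of all genes tested passed): DLGAP5 (-0.39 ± 0.09), GTSE1 (-0.53 ± 0.13), RACGAP1, PLK1, NDC80 and FAM83D. With no filter on low counts 0 passed, leaving out 1 library gave 2 to 5 (lowest without replicate 2 at 0.4 µM or replicate 3 at 10 µM), and without the low-share libraries 29 did (8.98% of all genes). DLGAP5 averaged 70.4 ± 1.6 CPM at 0.4 µM, 68.96 ± 3.6 CPM at 2 µM and 53.6 ± 1.8 CPM at 10 µM (SD, n = 3 each). At 0.4 and 2 µM 0 genes passed against vehicle in edgeR and DESeq2, 0 and 5 had an unadjusted p under 0.05, and 0.18% and 0.322% of all genes passed. Without the low-share libraries 1 gene fell at 0.4 µM (2.92% of all genes passed) and 14 fell at 2 µM (5.51%). With only the 2 groups compared in the fit 15 and 15 passed, and the share of all genes in those fits is not given here.

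**Figure D4:**
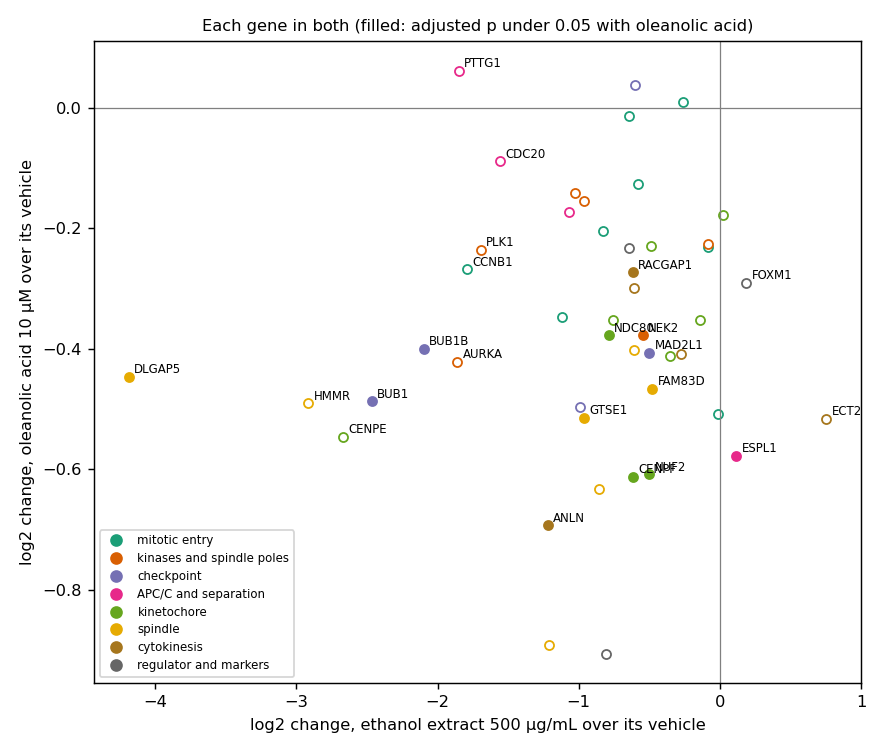
Log2 change of each gene over its own vehicle with ethanol extract at 500 µg/mL and with oleanolic acid at 10 µM, one point per gene, coloured by role and filled where the gene passed the test with oleanolic acid. DLGAP5 is at -4.19 with the extract and -0.45 with oleanolic acid, and ANLN at -1.22 and -0.69.

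Ethanol extract at 500 µg/mL and oleanolic acid at 10 µM were compared with different vehicle libraries. Of the 40 genes that fell with the extract, 12 also fell with oleanolic acid, with which 13 fell in all. Over the 16633 genes tested in both batches, 164 of the 340 that were lower with oleanolic acid were among the 5794 that were lower with the extract. Beside the 12 of 13 stands the count for all the genes with the extract, 40 of 47. Of the 13, ESPL1 alone was not shared, at 0.11 with the extract and -0.58 with oleanolic acid. Across the 47 genes, which are not independent replicates and share their libraries, Pearson's r of the log2 changes was 0.09 and Spearman's rho 0.08. CDK1 was at -0.02 with the extract and -0.51 with oleanolic acid, ECT2 at 0.75 and -0.52, and PTTG1 at -1.85 and 0.06. The doses are in different units, so no sizes were compared.

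Hederagenin carries an additional hydroxyl group on the oleanolic acid skeleton. At 10 µM FAM83D (56.1 ± 2.3 CPM, against 72.9 ± 1.4 CPM with vehicle; edgeR adjusted p = 0.0234) and ESPL1 (41.6 ± 2.0 CPM, against 58.5 ± 1.3 CPM with vehicle; edgeR adjusted p = 0.0377) fell (SD, n = 3 each), where 2.42% of all genes passed. Both calls were lost with no filter on low counts, without any 1 vehicle library and without replicate 2 or 3 of hederagenin (0 genes passed in each), and that of ESPL1 also without its replicate 1. The median log2 change was -0.24, with 41 of 47 negative, and the named genes were at AURKA (-0.38), PLK1 (-0.15), CDK1 (-0.48), CCNB1 (-0.10), BUB1 (-0.43), CDC20 (-0.11), TOP2A (-0.03), MKI67 (-0.64) and FOXM1 (-0.25). Without the 16 low-share libraries, which include replicate 3 of this group, 26 genes fell (12.5% of all genes passed), and ANLN was at -0.41, ESPL1 at -0.53 and FAM83D at -0.36. With 10 against 0.4 µM hederagenin, PLK1 (-0.36 ± 0.09) and RACGAP1 (-0.24 ± 0.06) were lower (1.05% of all genes passed). With no filter, or with only the 2 groups in the fit, 0 genes passed. Over the left-out libraries 0 to 5 passed (lowest without any 1 library at 10 µM or replicate 2 at 0.4 µM). The fit without the low-share libraries kept only replicate 3 at 0.4 µM.

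PTTG1 moved with the mitochondrially encoded share across the ingredient batch. It lay between 100.2 and 361 CPM (median 214) in the 16 libraries with a share under 5%, and between 85.2 and 184 CPM (median 108) in the other 59. With gallic acid at 10 µM it was at 349, 97.9 and 227 CPM in libraries with shares of 2.40, 18.9 and 3.25%, against 91.2, 91.1 and 92.6 CPM with vehicle. The library with the highest share lay nearest to vehicle. The rise called there (log2 1.29 ± 0.36, edgeR adjusted p = 0.0163) was 0.10 without the low-share libraries. That fit kept only the gallic acid library with a share of 18.9%. With hederagenin at 0.4 µM, where PTTG1 was the 1 gene called and 3.05% of all genes passed, it was at 151, 361 and 129 CPM in libraries with shares of 3.44, 2.29 and 17.8%. That rise (1.22 ± 0.36, edgeR adjusted p = 0.0483) was 0.49 without libraries 1 and 2, a fit that kept library 3 alone. The call was also lost without any 1 vehicle library, without library 2, with no filter and with RLE scaling. Without library 3, 17 genes passed, with the share of all genes not given here. Over the 47 genes, 33 had a lower median in the 16 low-share libraries than in the other 59 and 14 a higher one. The same split over all genes was not computed, so it is no result about these genes in particular. The 16 were all treated libraries of mixed groups, and the 59 included the vehicle libraries. MKI67 had a median of 299.8 CPM in the 16 and 593 CPM in the 59, and TACC3 of 151 and 94.8 CPM.

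**Figure D5:**
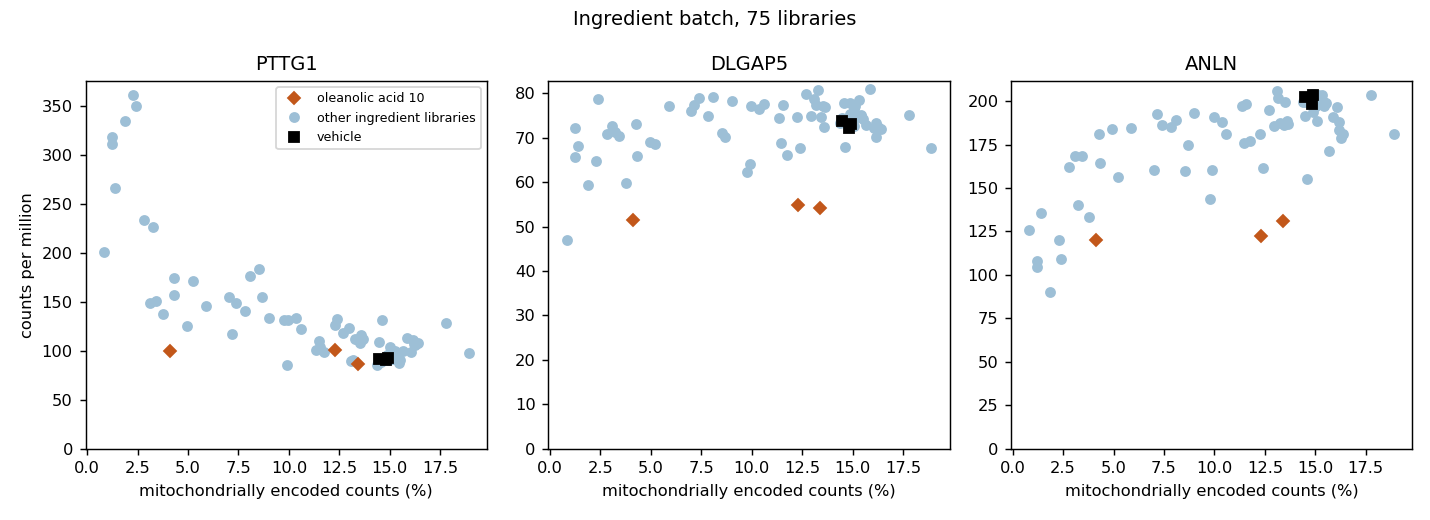
Level in CPM (y axes, linear from 0) of PTTG1, DLGAP5 and ANLN against the percentage of counts from mitochondrially encoded genes (x axes) in the 75 libraries of the ingredient batch; diamonds are oleanolic acid at 10 µM, circles the other treated libraries and squares vehicle. PTTG1 reaches 361 CPM among libraries with a share under 5% and 184 CPM among the rest, and the 3 oleanolic acid libraries lie below the 3 vehicle libraries for DLGAP5 and ANLN.

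The other calls against vehicle in the ingredient batch, like those with oleanolic acid and hederagenin, lay in groups that hold such libraries. With gallic acid at 10 µM BUB1B, ESPL1, CENPA and BUB1 fell and PTTG1 and CDC25B rose, where 13.5% of all genes tested passed. The fit without the low-share libraries kept only replicate 2 of this group. With no filter 1 gene passed, and with only the 2 groups in the fit 0. The count was 1 without vehicle replicate 1, and 0 without vehicle replicate 2 or 3 or gallic acid replicate 1 or 3. Without gallic acid replicate 2, the library with the highest mitochondrial share, 21 passed, with the share of all genes not given here. With catechin at 2 µM BUB1B and ASPM fell and TACC3 and SPC24 rose (8.06% of all genes). ASPM was at 59.7, 93.8 and 96.6 CPM with catechin, against 175, 169.7 and 172 CPM with vehicle, and the shares of the 3 catechin libraries were 0.822, 5.23 and 8.54%. Without the low-share libraries 16 genes fell and 11 rose with catechin at 2 µM (39.5% of all genes), without its replicate 1 1 gene passed and without its replicate 3 13 did. With catechin at 0.4 µM TPX2 (0.46 ± 0.12) and RACGAP1 (0.22 ± 0.06) rose (4.66% of all genes), and without the low-share libraries 11 fell and 10 rose (30.4%). At both doses 0 genes passed with no filter on low counts and 0 without any 1 vehicle library. The part of the low share in these calls was not tested.

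In 18 of the 24 ingredient comparisons with vehicle 0 of the 47 genes passed in edgeR: all doses of paeonol, paeoniflorin, albiflorin and benzoic acid, catechin at 10 µM, gallic acid at 0.4 and 2 µM, hederagenin at 2 µM, and oleanolic acid at 0.4 and 2 µM. The share of all genes that passed at 0.4, 2 and 10 µM was 0.278%, 0.0873% and 0.126% with paeonol, 0.136%, 0.229% and 0.191% with paeoniflorin, 0.0382%, 0.0382% and 0.0382% with albiflorin and 0.0327%, 0.0218% and 0.0273% with benzoic acid. It was 0.0655% with catechin at 10 µM, 0.0709% and 0.611% with gallic acid at 0.4 and 2 µM, and 0.0546% with hederagenin at 2 µM. In these 18, up to 12 of the 47 had an unadjusted p under 0.05, and DESeq2 called 1 gene in all, with gallic acid at 2 µM. Not all of these zeros held without the low-share libraries: 10 genes passed with gallic acid at 0.4 µM (13.8% of all genes), 5 with gallic acid at 2 µM (5.63%), 5 with paeoniflorin at 0.4 µM (7.16%), 1 with paeoniflorin at 10 µM (2.91%) and 1 with catechin at 10 µM (2.48%), besides those given above for oleanolic acid, and the other 11 comparisons gave 0. With only the 2 groups compared in the fit 7 genes passed with hederagenin at 2 µM, 3 with albiflorin at 10 µM and 1 with albiflorin at 0.4 µM. In such fits 3 passed with catechin at 10 µM and 1 with benzoic acid at 10 µM, and the shares of all genes are not given here. At 10 µM the log2 changes of the 9 named genes lay between -0.13 (CDK1) and 0.07 (FOXM1) with benzoic acid and between -0.06 (CDK1) and 0.07 (AURKA) with albiflorin. They lay between -0.32 (MKI67) and 0.10 (PLK1) with paeoniflorin, between -0.41 (MKI67) and 0.08 (TOP2A) with catechin and between -0.48 (MKI67) and 0.24 (PLK1) with paeonol. With gallic acid at 10 µM they lay between -0.77 (MKI67) and 0.05 (PLK1). The 95% intervals in these 18 comparisons reached 1.85 on the log2 scale (gallic acid at 2 µM).

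In all, 9 pairs of related ingredients were compared at matched doses. Hederagenin against oleanolic acid at 10 µM gave 0 of the 47 genes past the test in edgeR and DESeq2, 4 with an unadjusted p under 0.05, and 0.0109% of all genes passed. The difference was 0.21 for DLGAP5 (95% interval 0.03 to 0.39) and 0.20 for RACGAP1 (0.07 to 0.33), and over the 47 genes the intervals reached from -0.82 to 1.04. Without the low-share libraries DLGAP5 (0.21, edgeR adjusted p = 0.0431) and CENPF (0.47, edgeR adjusted p = 0.0442) were higher with hederagenin than with oleanolic acid (0.386% of all genes passed). At 0.4 and 2 µM, where 0% and 0% of all genes passed, this pair gave 0 calls in edgeR and DESeq2, with 7 and 3 at an unadjusted p under 0.05, and intervals from -1.30 to 1.70 and from -0.76 to 0.92.

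Paeoniflorin and albiflorin, which are isomers, gave 0 calls in edgeR and DESeq2 at 0.4, 2 and 10 µM, with 0, 1 and 0 genes at an unadjusted p under 0.05, where 0%, 0% and 0% of all genes passed. The 95% intervals of their differences reached from -1.07 to 1.196 at 10 µM, so a p that missed the threshold does not show that they act alike. Gallic acid is the trihydroxy form of benzoic acid. At 10 µM PTTG1 was at 349, 97.9 and 227 CPM with gallic acid, against 104, 96.1 and 87.1 CPM with benzoic acid (log2 difference 1.23 ± 0.36, edgeR adjusted p = 0.0298; 8.7% of all genes passed), with groups that overlapped. Without the low-share libraries that difference was 0.03, with replicate 2 the only gallic acid library left. Without gallic acid replicate 1 or 3, 0 genes passed. Without its replicate 2, 25 passed (share of all genes not given here), and DESeq2 called 4. At 0.4 and 2 µM, where 0% and 0% of all genes passed, this pair gave 0 calls in edgeR and DESeq2, with 0 and 4 genes at an unadjusted p under 0.05. With 10 against 0.4 µM of paeoniflorin, albiflorin, catechin, gallic acid, paeonol or benzoic acid, 0 of the 47 genes passed in edgeR and DESeq2, with up to 6 (gallic acid) at an unadjusted p under 0.05. Of all genes, 0%, 0%, 0%, 0.557%, 0% and 0% passed in those 6 comparisons, in the same order. For gallic acid, the fit without the low-share libraries kept only replicate 2 at 10 µM.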

How the data were processed

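RNA was measured in 96 libraries prepared with the MGIEasy RNA Directional Library Prep kit, per the labels. The submitters' processing notes name GRCh38 and list RSEM 1.3.3, STAR, Trim Galore and FastQC as tools. The deposited values are expected counts that the authors made per gene, with 60675 genes in 1 table, and 89.2% of the values were whole. Annotation release and strand use were not given in the sources used here.

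Expected counts were rounded and the groups of a batch were fitted together, separately from the other batch, in edgeR 4.0.16 (R 4.3.3; TMM factors, filterByExpr, quasi-likelihood test), with Benjamini-Hochberg adjustment over all 16854 genes (extracts) or 18324 genes (ingredients) tested, in 52 comparisons. All 47 genes passed the filter in both batches. Levels are CPM of the TMM-adjusted library size, except those of cell type markers and overlapping or related genes, which are CPM of the unadjusted library total. DESeq2 1.42.0, other scaling, no filter, a replicate block and left-out libraries were alternatives. The code was tried on simulated counts of pairs of groups and not on the fits of a whole batch, so error rates of the latter were not measured. The members and lists were chosen with earlier results of these data known; 1 listed centriole gene was not matched. Values of every library are given for the 10 largest changes, the genes that rose and 9 named genes with ethanol extract at 500 µg/mL; elsewhere up to 6 genes with the smallest p and the 9 named genes are given, and for other pathway lists up to 3 genes. Others were named after their values were seen. Gene positions are from GENCODE v29 and promoters from RefSeq, with 10 of the 47 genes not matched there.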

Additional observations from a re-analysis of the deposited data

How the results depend on the processing

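Counts below are of the 47 genes past the test, against vehicle unless a second group is named, with doses in µg/mL for extracts and µM for ingredients. They are printed without the share of all genes in the same fit, so they describe the fits and not these genes in particular. The causes of the moves were not tested. For ethanol extract at 500 µg/mL against vehicle, 41 or 42 of the 43 calls held in each alternative with 0 changes of direction, SPC24 or ESPL1 being lost, and of the 9 named genes CDK1 alone changed sign: it was 0.014 with upper-quartile factors, 0.033 without vehicle replicate 2 and 0.067 without ethanol extract 500 replicate 3, and between -0.079 and 0.067 over the fits that left out 1 library. With only the 2 groups compared in the fit the count was 0 (in place of 5) with ethanol extract 20, 3 (in place of 8) with water extract 20, 3 (in place of 0) with albiflorin 10, 1 (in place of 0) with albiflorin 0.4, 22 (in place of 2) with hederagenin 10, 7 (in place of 0) with hederagenin 2, 0 (in place of 1) with hederagenin 0.4, 32 (in place of 13) with oleanolic acid 10, 15 (in place of 0) with oleanolic acid 2, 15 (in place of 0) with oleanolic acid 0.4, 3 (in place of 0) with catechin 10, 22 (in place of 2) with catechin 0.4, 0 (in place of 6) with gallic acid 10, 1 (in place of 0) with benzoic acid 10, 0 (in place of 2) with hederagenin 10 against hederagenin 0.4, 27 (in place of 6) with oleanolic acid 10 against oleanolic acid 0.4 and 0 (in place of 1) with gallic acid 10 against benzoic acid 10. With upper-quartile factors the count was 1 (in place of 2) with ethanol extract 100 against water extract 100. With no filter on low counts the count was 1 (in place of 2) with ethanol extract 100 against water extract 100, 0 (in place of 2) with hederagenin 10, 0 (in place of 1) with hederagenin 0.4, 4 (in place of 13) with oleanolic acid 10, 0 (in place of 4) with catechin 2, 0 (in place of 2) with catechin 0.4, 1 (in place of 6) with gallic acid 10, 0 (in place of 2) with hederagenin 10 against hederagenin 0.4 and 0 (in place of 6) with oleanolic acid 10 against oleanolic acid 0.4. Without the 16 libraries under 5% mitochondrial share the count was 1 (in place of 0) with paeoniflorin 10, 5 (in place of 0) with paeoniflorin 0.4, 26 (in place of 2) with hederagenin 10, 3 (in place of 1) with hederagenin 0.4, 35 (in place of 13) with oleanolic acid 10, 14 (in place of 0) with oleanolic acid 2, 1 (in place of 0) with oleanolic acid 0.4, 1 (in place of 0) with catechin 10, 27 (in place of 4) with catechin 2, 21 (in place of 2) with catechin 0.4, 1 (in place of 6) with gallic acid 10, 5 (in place of 0) with gallic acid 2, 10 (in place of 0) with gallic acid 0.4, 10 (in place of 2) with hederagenin 10 against hederagenin 0.4, 29 (in place of 6) with oleanolic acid 10 against oleanolic acid 0.4, 2 (in place of 0) with gallic acid 10 against gallic acid 0.4, 2 (in place of 0) with hederagenin 10 against oleanolic acid 10 and 0 (in place of 1) with gallic acid 10 against benzoic acid 10. Without both sets of libraries, an alternative chosen after seeing the data, the count was 6 (in place of 0) with paeoniflorin 10, 8 (in place of 0) with paeoniflorin 0.4, 28 (in place of 2) with hederagenin 10, 3 (in place of 0) with hederagenin 2, 3 (in place of 1) with hederagenin 0.4, 36 (in place of 13) with oleanolic acid 10, 16 (in place of 0) with oleanolic acid 2, 5 (in place of 0) with oleanolic acid 0.4, 4 (in place of 0) with catechin 10, 22 (in place of 4) with catechin 2, 24 (in place of 2) with catechin 0.4, 1 (in place of 6) with gallic acid 10, 6 (in place of 0) with gallic acid 2, 12 (in place of 2) with hederagenin 10 against hederagenin 0.4, 32 (in place of 6) with oleanolic acid 10 against oleanolic acid 0.4, 7 (in place of 0) with hederagenin 10 against oleanolic acid 10 and 2 (in place of 0) with hederagenin 0.4 against oleanolic acid 0.4. With DESeq2 the count was 5 (in place of 2) with hederagenin 10, 3 (in place of 1) with hederagenin 0.4, 12 (in place of 4) with catechin 2, 10 (in place of 6) with gallic acid 10, 1 (in place of 0) with gallic acid 2, 10 (in place of 6) with oleanolic acid 10 against oleanolic acid 0.4 and 4 (in place of 1) with gallic acid 10 against benzoic acid 10. With RLE factors the count was 0 (in place of 1) with hederagenin 0.4 and 1 (in place of 2) with hederagenin 10 against hederagenin 0.4. Without the 4 libraries with COL1A2 above 100 CPM the count was 2 (in place of 1) with hederagenin 0.4, 14 (in place of 4) with catechin 2, 12 (in place of 6) with gallic acid 10, 10 (in place of 6) with oleanolic acid 10 against oleanolic acid 0.4 and 6 (in place of 1) with gallic acid 10 against benzoic acid 10. Leaving out 1 library at a time gave 1 to 8 (in place of 5) with ethanol extract 20, 4 to 10 (in place of 8) with water extract 100, 2 to 11 (in place of 8) with water extract 20, 1 to 1 (in place of 2) with ethanol extract 100 against water extract 100, 0 to 1 (in place of 1) with water extract 500 against water extract 20, 0 to 2 (in place of 2) with hederagenin 10, 0 to 17 (in place of 1) with hederagenin 0.4, 7 to 12 (in place of 13) with oleanolic acid 10, 0 to 13 (in place of 4) with catechin 2, 0 to 0 (in place of 2) with catechin 0.4, 0 to 21 (in place of 6) with gallic acid 10, 0 to 5 (in place of 2) with hederagenin 10 against hederagenin 0.4, 2 to 5 (in place of 6) with oleanolic acid 10 against oleanolic acid 0.4, 0 to 1 (in place of 0) with gallic acid 10 against gallic acid 0.4, 0 to 5 (in place of 0) with hederagenin 0.4 against oleanolic acid 0.4 and 0 to 25 (in place of 1) with gallic acid 10 against benzoic acid 10. The 42 such fits left out each library of the extract batch and, of the ingredient batch, those of vehicle, hederagenin at 10 and 0.4 µM, oleanolic acid at 10 and 0.4 µM, catechin at 2 µM and gallic acid at 10 µM; the other groups were not run. Where dropping libraries left a group with 1, that sample is assumed to vary like the other groups. This holds for gallic acid 10 and hederagenin 0.4 without the low-share libraries, so counts that use them there are not replicated. How far depth and 3 libraries per group limit the ingredient comparisons is given by the 95% intervals printed with them. In the 150 bases nearest the start site E2F letters were found in 1 gene, in place of 3.

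Same-numbered replicates of different groups deviated together with a mean correlation of 0.155 in the extract batch (lowest -0.239) and 0.0355 in the ingredient batch (lowest -0.939), and 10 of 21 and 39 of 75 libraries correlated best with their own number, which is a hint of shared deviations from the data and not from the design. Differently numbered ones had means of -0.0777 and -0.00916, and 69.8% and 44.6% of same-numbered pairs, not all, had a correlation over 0.1, and the labels name no shared litter, day or culture, so the numbers were not taken to pair the samples. With the replicate block the count was 8 (in place of 5) with ethanol extract 20, 13 (in place of 8) with water extract 20, 2 (in place of 1) with water extract 500 against water extract 20, 0 (in place of 1) with hederagenin 0.4 and 1 (in place of 2) with hederagenin 10 against hederagenin 0.4.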

Other observations

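The 2 vehicle groups, which belong to different batches and were not compared by a test, can be set side by side. The ratio of the mean level in the extract batch to that in the ingredient batch ran from 0.77 for CDK1 (70.2 ± 5.6 CPM in the extract batch and 90.9 ± 3.8 CPM in the ingredient batch, SD, n = 3 each) to 1.34 for PTTG1 (122 ± 9.8 CPM and 91.6 ± 0.82 CPM). These ratios were set across tables scaled separately.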
